A study of Mus musculus with 12 samples.

Results

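The interferon-stimulated genes examined here are the 9 genes *Isg15*, *Ifit1*, *Ifit2*, *Ifit3*, *Irf7*, *Oasl2*, *Bst2*, *Ifi27l2a* and *Usp18*, named by symbol and found by their Ensembl identifiers in both deposited expression tables. All 9 are among the 16152 genes of the count table and the 51825 genes of the CPM table (CPM, reads of a gene scaled to the mapped reads of its library), and all 9 passed the filter on low values. The RNA came from the entire lung of C57BL/6 mice, male and female, with no genetic change or treatment in any group. Of the 4 time-points, E15.5 and E18.5 precede birth and P5 and P8 follow it. There were 3 replicates at each, 12 libraries in all, and those of a time-point shared a litter, so litter and time-point cannot be told apart, and p-values measure the spread between littermates. The count tables held between 41337443 and 53901957 reads per library, and the CPM values rest on 48436716 to 62279460 mapped reads.

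Interferons are secreted proteins that cells release on sensing viral or misplaced nucleic acids. Type I interferons bind the receptor pair Ifnar1 and Ifnar2, whose kinases Jak1 and Tyk2 phosphorylate STAT proteins. Stat2 acts with Irf9 in a complex that binds the interferon-stimulated response element in the promoters of target genes, and the products of those genes restrict viral replication, amplify the response or shut it off. In the lung, epithelial cells, endothelial cells and leukocytes can all respond, and some cells keep a low tonic expression of these genes with no infection.

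The promoters of 7 of the 9 genes were read from RefSeq windows (GRCm38.p6, the same coordinates as mm10). The core of the response element was searched on both strands in the 250 bases before each annotated start, as GAAANNGAAA and its reverse complement TTTCNNTTTC, with overlapping matches counted. It was present in 4 of the 7 genes with a window and in 16 of 40 other interferon-stimulated genes with one (40%), beside 936 of all 27025 genes with one (3.46%) and 978 of all 32851 windows (2.98%). These are matches of letters and not measured binding. The stretches below are shown because they hold the matches in *Isg15*, *Ifit1*, *Ifit3* and *Bst2*, and that of *Ifit2* stands for the 3 genes without one (*Ifit2*, *Irf7* and *Oasl2*), which differed in their log2 fold change across birth, from 0.52 to 2.99. Each runs 5′ to 3′ in the direction of its gene, stops short of annotated exons, and carries the matches in capitals. They lie at chr4:156200819-156200988 (minus strand), chr19:34640744-34640870 (plus), chr19:34583359-34583528 (plus), chr8:71537473-71537642 (minus) and chr19:34550524-34550693 (plus).
Isg15: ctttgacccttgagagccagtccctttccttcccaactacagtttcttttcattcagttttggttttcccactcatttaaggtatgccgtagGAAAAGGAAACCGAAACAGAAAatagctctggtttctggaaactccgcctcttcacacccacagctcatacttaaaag
Ifit1: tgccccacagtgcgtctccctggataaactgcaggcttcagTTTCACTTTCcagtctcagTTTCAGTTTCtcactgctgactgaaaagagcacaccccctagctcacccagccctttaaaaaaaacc
Ifit3: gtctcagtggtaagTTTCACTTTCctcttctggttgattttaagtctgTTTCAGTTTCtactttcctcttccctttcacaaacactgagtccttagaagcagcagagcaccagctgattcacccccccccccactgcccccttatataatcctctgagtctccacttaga
Bst2: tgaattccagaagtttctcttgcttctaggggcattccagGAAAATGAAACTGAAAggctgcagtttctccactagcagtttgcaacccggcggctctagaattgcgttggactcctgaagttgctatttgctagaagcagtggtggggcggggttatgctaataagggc
Ifit2: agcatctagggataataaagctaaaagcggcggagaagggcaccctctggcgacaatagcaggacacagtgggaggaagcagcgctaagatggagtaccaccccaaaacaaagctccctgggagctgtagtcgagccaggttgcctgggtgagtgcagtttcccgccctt

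In *Isg15*, 3 matches overlapped in 1 run, from 78 to 57 bases before the start, and in *Bst2* 2 matches overlapped, from 130 to 115 bases before it. *Ifit1* and *Ifit3* had 2 separate matches each, TTTCACTTTC and TTTCAGTTTC in both genes, at 104 to 95 and 85 to 76 bases before the start of *Ifit1* and at 156 to 147 and 122 to 113 bases before that of *Ifit3*. Distances are counted from the RefSeq start. For *Ifit1* the searched bases ended at chr19:34640888, past the end of the printed stretch and the gene start given below. No match was found in the windows of *Irf7* and *Oasl2*, which says only that these letters are not there. Promoter windows of *Usp18* and *Ifi27l2a* were not used here.

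Over the whole time course, the 9 genes were lower before birth than after it. For each of the 9, every one of the 6 postnatal libraries lay above every one of the 6 embryonic libraries, as was so for 26.6% of the 15994 genes tested. The summed CPM of the 9 genes was 47.6 to 54.1 in the E15.5 libraries and 47.7 to 56.1 in the E18.5 libraries, then 124.5 to 130.7 (P5) and 138.3 to 158.3 (P8). *Ifit2* and *Bst2* together made up 75.5% to 88.3% of this sum in the embryonic libraries, 58.5% to 62.9% at P5 and 47.4% to 49.1% at P8. The other 7 genes thus gained share after birth. In bulk tissue, more cells of a type and more RNA per cell cannot be told apart. For each gene below, values are given for replicates 1 to 3 in order. Calls needed a log2 fold change above 1 in either direction together with an edgeR FDR, adjusted over all 15994 genes tested, of less than 0.05.

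**Figure D1:**
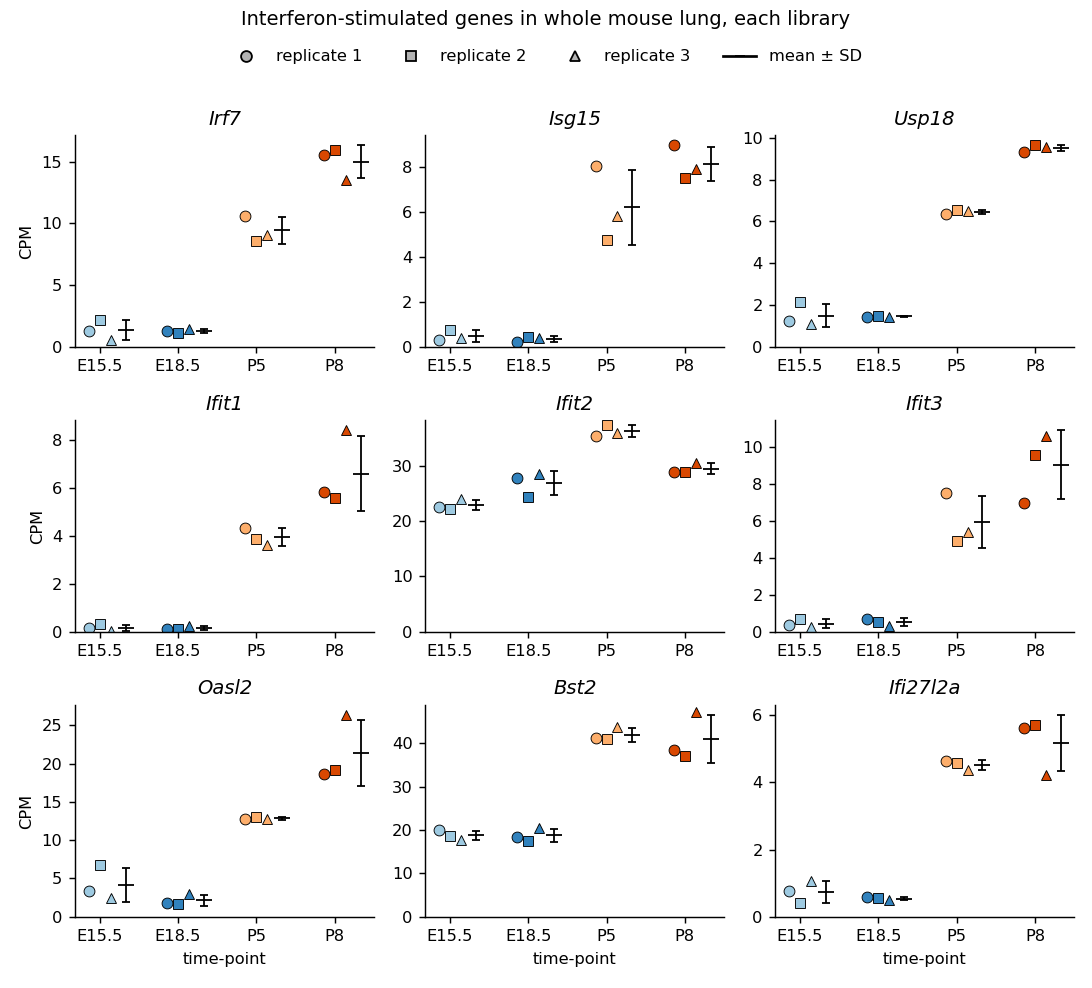
CPM of each of the 9 genes (y axes, each from 0) in the 3 libraries of each time-point (x axes); points are libraries with 1 symbol per replicate, and the bars to their right give the mean ± SD. In every panel the postnatal points lie above the embryonic ones, and *Ifit2* and *Bst2* already stood at 17.4 to 28.4 CPM before birth.

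*Irf7* (ENSMUSG00000025498, chr7:141262706-141266481) encodes the transcription factor that drives interferon alpha genes and is itself induced by interferon. It was at 1.27, 2.18 and 0.590 CPM in replicates 1 to 3 at E15.5 and at 1.25, 1.09 and 1.45 CPM at E18.5. At P5 it was at 10.6, 8.57 and 9.09 CPM and at P8 at 15.6, 16.0 and 13.5 CPM. The embryonic values overlapped, each P5 value lay above them, and each P8 value lay above each P5 value. Between E18.5 and P5 its log2 fold change was 2.99 (standard error, SE, 0.33, edgeR FDR = 4.6e-06), whereas from P5 to P8 it was 0.65 (SE 0.295, edgeR FDR = 0.14). Its exons share 45 bases with those of *Phrf1* on the opposite strand, and whether the counting used strand is not given in the sources used here.

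*Isg15* (ENSMUSG00000035692, chr4:156199424-156200818) encodes a ubiquitin-like protein that is joined to other proteins or secreted. Its level was 0.307, 0.767 and 0.374 CPM at E15.5 and 0.205, 0.459 and 0.403 CPM at E18.5, which is 10 to 39 reads per library. It reached 8.04, 4.75 and 5.82 CPM at P5 and 8.97, 7.51 and 7.91 CPM at P8. The postnatal values of the 2 time-points overlapped, since P5 replicate 1 was above P8 replicates 2 and 3. From E18.5 to P5 *Isg15* rose by 4.20 on the log2 scale (SE 0.376, edgeR FDR = 7.1e-07), and the P5 mean was 17.4 times the E18.5 mean in CPM. From P5 to P8 the log2 fold change was 0.37 (SE 0.308, edgeR FDR = 0.43), and it was between 0.18 (without P5 replicate 2) and 0.62 (without P5 replicate 1) when 1 library was left out.

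*Usp18* (ENSMUSG00000030107, chr6:121245906-121270917) encodes the protease that takes ISG15 off its targets and also dampens signalling at Ifnar2. Its level was 1.23, 2.12 and 1.10 CPM in the E15.5 and 1.44, 1.49 and 1.45 CPM in the E18.5 libraries. After birth it was 6.36, 6.54 and 6.49 CPM (P5) and 9.34, 9.65 and 9.55 CPM (P8). Among the 9 genes it varied little between replicates from E18.5 on, with SDs of 0.0301, 0.0961 and 0.161 CPM (n = 3 each). The rise between E18.5 and P5 was 2.23 on the log2 scale (SE 0.210, edgeR FDR = 1.1e-06). Each P8 library again lay above each P5 library, but the log2 fold change of 0.54 did not pass the FDR threshold (SE 0.195, edgeR FDR = 0.075). A lincRNA, *Gm44148*, shares 124 exonic bases with it on the opposite strand.

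The *Ifit* genes encode tetratricopeptide proteins that bind viral RNA or block its translation, and *Ifit1*, *Ifit2* and *Ifit3* lie within 1 cluster on chromosome 19. *Ifit1* (ENSMUSG00000034459, chr19:34640871-34650009) was close to the limit of detection before birth, at 0.145, 0.315 and 0.0393 CPM at E15.5 (9, 16 and 2 reads) and 0.103, 0.134 and 0.238 CPM at E18.5 (5, 7 and 13 reads). It was at 4.35, 3.86 and 3.62 CPM at P5 and 5.83, 5.59 and 8.42 CPM at P8. Its rise between E18.5 and P5 was 4.70 on the log2 scale (SE 0.461, edgeR FDR = 1.6e-06), and the P5 mean was 24.9 times the E18.5 mean in CPM. From P5 to P8 the libraries did not overlap, but the log2 fold change of 0.72 missed the FDR threshold (SE 0.357, edgeR FDR = 0.18). Fold changes of such low genes depend on the pseudocount: by limma on log2(CPM + 1) the change from E18.5 to P5 was 2.09 in *Ifit1*, 2.17 in *Ifit3*, 1.84 in *Ifi27l2a* and 2.39 in *Isg15*, still past both thresholds.

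*Ifit3* (ENSMUSG00000074896, chr19:34583531-34588731) was also low before birth and higher after it. Its mean was 0.303 CPM per kilobase of exon at E18.5 and 3.41 at P5, beside 0.0596 and 1.48 in *Ifit1*. Before birth it had 0.387, 0.708 and 0.236 CPM (E15.5) and 0.718, 0.555 and 0.311 CPM (E18.5), and after birth 7.53, 4.91 and 5.39 CPM (P5) and 7.0, 9.56 and 10.6 CPM (P8). The rise between E18.5 and P5 was 3.59 on the log2 scale (SE 0.379, edgeR FDR = 3.1e-06). P8 replicate 1 lay below P5 replicate 1, and the log2 fold change from P5 to P8 was 0.58 (SE 0.324, edgeR FDR = 0.23). The study kept uniquely mapped reads, so reads that *Ifit3* and *Ifit1* share with their near copies *Ifit3b* and *Ifit1bl1* can be lost. Their levels are uncertain to that extent.

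*Ifit2* (ENSMUSG00000045932, chr19:34550694-34576419) had a higher level before birth than *Ifit1* and *Ifit3* and a smaller fold change across it. The E15.5 libraries held 22.6, 22.2 and 23.9 CPM and the E18.5 libraries 27.7, 24.4 and 28.4 CPM. At P5 it had 35.3, 37.4 and 35.8 CPM, and at P8 28.9, 28.8 and 30.5 CPM. The libraries of adjacent time-points did not overlap in any of the 3 intervals, with each step up to P5 and a step down to P8. The log2 fold change was 0.24 for the first interval (SE 0.0677, edgeR FDR = 0.028), 0.52 across birth (SE 0.0673, edgeR FDR = 2.0e-05) and -0.32 from P5 to P8 (SE 0.0671, edgeR FDR = 0.01). All 3 passed the FDR threshold of 0.05 but not the fold change cutoff of 1, so *Ifit2* was called in no comparison. It was the sole member of the 9 whose mean at P5 was under 2 times its mean at E18.5 in CPM, at 1.35 times.

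*Oasl2* (ENSMUSG00000029561, chr5:114896936-114912234) belongs to the oligoadenylate synthetase family, which senses double-stranded RNA. Before birth its values were 3.31, 6.72 and 2.46 CPM (E15.5) and 1.81, 1.63 and 2.95 CPM (E18.5). They were 12.7, 13 and 12.8 CPM in the P5 and 18.6, 19.1 and 26.3 CPM in the P8 libraries. The rise between E18.5 and P5 was 2.68 on the log2 scale (SE 0.33, edgeR FDR = 1.2e-05). Of the members, *Oasl2* came nearest to a call before birth, with a log2 fold change of -0.96 from E15.5 to E18.5 (SE 0.325, edgeR FDR = 0.054), and E18.5 replicate 3 overlapped the E15.5 libraries. It was called lower at E18.5 when E15.5 replicate 3 (-1.22, edgeR FDR = 0.016) or E18.5 replicate 3 (-1.26, edgeR FDR = 0.029) was left out, and its log2 fold change was -0.43 (edgeR FDR = 0.25) without E15.5 replicate 2, its highest embryonic library. From P5 to P8 its log2 fold change was 0.72 (SE 0.301, edgeR FDR = 0.12) with no overlap between libraries. Reads that it shares with its near copy *Oasl1* can be lost in the same way.

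*Bst2* (ENSMUSG00000046718, chr8:71534255-71537456), which encodes the membrane protein tetherin that holds budding virions on the cell surface, was at 19.9, 18.6 and 17.8 CPM at E15.5 and 18.47, 17.4 and 20.4 CPM at E18.5. It was at 41.1, 40.9 and 43.9 CPM at P5 and 38.4, 37.1 and 47.3 CPM at P8. The rise between E18.5 and P5 was 1.25 on the log2 scale (SE 0.0911, edgeR FDR = 1.2e-07), and the embryonic values overlapped each other, as did the postnatal ones.

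*Ifi27l2a* (ENSMUSG00000079017, chr12:103442167-103443680) encodes a small hydrophobic protein of the Ifi27 family. The embryonic libraries held 0.775, 0.413 and 1.06 CPM (E15.5) and 0.575, 0.555 and 0.494 CPM (E18.5), the postnatal ones 4.62, 4.58 and 4.36 CPM (P5) and 5.60, 5.70 and 4.21 CPM (P8). It rose by 3.14 on the log2 scale from E18.5 to P5 (SE 0.297, edgeR FDR = 1.1e-06), and P8 replicate 3 lay below all 3 P5 libraries. Reads shared with the near copy *Ifi27l2b* can be lost as not uniquely mapped.

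Compared per kilobase of annotated exon, *Bst2* was the highest and *Ifit1* the lowest of the 9 genes by mean level at each time-point. At E18.5, *Bst2* was at 20.8 ± 1.69 CPM per kilobase (SD, n = 3), *Ifit2* at 6.84 ± 0.548, *Ifi27l2a* at 1.17 ± 0.0904 and the other 6 genes between 0.0596 and 0.523. At P5 *Bst2* was at 46.5 ± 1.83 CPM per kilobase, and *Ifi27l2a* (9.76 ± 0.312), *Ifit2* (9.21 ± 0.275) and *Isg15* (8.21 ± 2.22) were next to each other, with *Isg15* overlapping both within 1 SD. The remaining 5 genes were between 1.48 and 3.41 CPM per kilobase at P5 and between 2.49 and 5.19 at P8, where *Ifi27l2a* (11.2 ± 1.80) and *Isg15* (10.8 ± 0.995) differed by less than their spread.

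From E15.5 to E18.5, 0 of the 9 genes were called, where 1.59% of all genes were called higher and 1.46% lower. At an unadjusted p under 0.05, 2 of the 9 passed, *Ifit2* and *Oasl2*, beside 36% of all genes, and DESeq2 also called 0. The median log2 fold change of the 9 was -0.05, beside -0.01 over all genes, and the E18.5 libraries lay above the E15.5 libraries in 1 of the 9 (*Ifit2*), a pattern seen in 18.3% of all genes. From E18.5 to P5, 8 of the 9 were called higher (17.5% of all genes) and for all 9 the P5 libraries did not overlap the E18.5 libraries and were higher (34.4% of all genes). The median log2 fold change was 2.99, where that of all genes was -0.00237.

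From P5 to P8, 0 of the 9 were called, whereas 2.88% of all genes were called higher, and DESeq2 also called 0. Here 4 of the 9 passed an unadjusted p of 0.05 (34% of all genes), *Irf7*, *Oasl2* and *Usp18* with higher and *Ifit2* with lower levels at P8. At any fold change, 1 of the 9 (*Ifit2*) passed the FDR threshold in this interval, beside 18% of all genes, and 1 (*Ifit2*) from E15.5 to E18.5, beside 21.5%. In 4 of the 9 (*Ifit1*, *Irf7*, *Oasl2* and *Usp18*) each P8 library was above each P5 library, as in 20.8% of all genes. The median log2 fold change was 0.54. Over the full span from E15.5 to P8, 8 of the 9 were called higher beside 20.9% of all genes, with log2 fold changes from 1.2 in *Bst2* to 5.38 in *Ifit1*, and *Ifit2* at 0.44 again passed the FDR threshold alone (edgeR FDR = 7.1e-05). When any 1 of the 12 libraries was left out, 8 of the 9 were called across birth (E18.5 to P5) and over the full span.

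**Figure D2:**
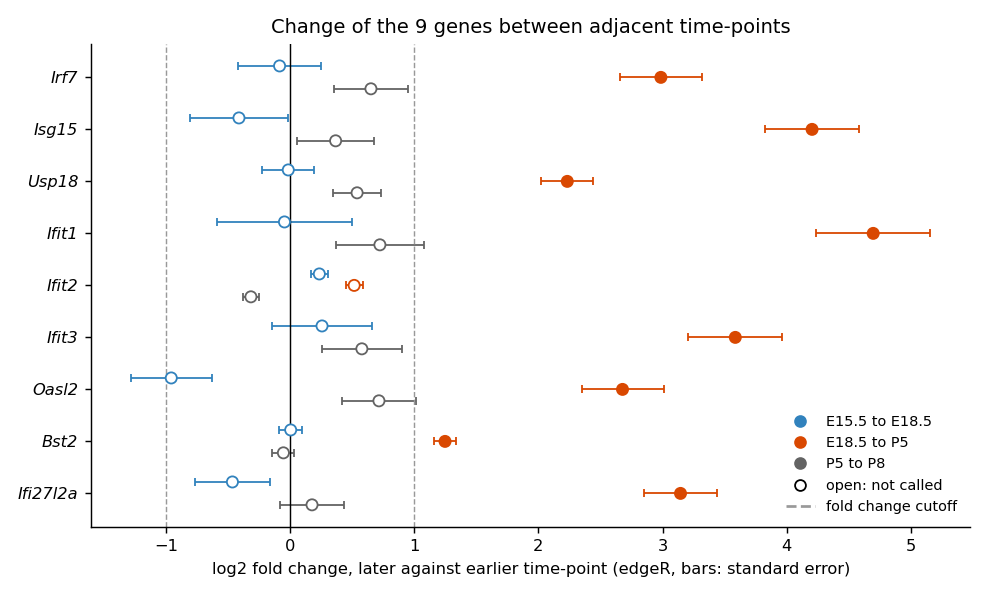
Log2 fold change (x axis) of the 9 genes (y axis) between adjacent time-points from the edgeR fit, with bars of 1 standard error; filled points were called and open points were not, and dashed lines mark the cutoff of 1. The filled points all belong to the interval from E18.5 to P5, between 1.25 (*Bst2*) and 4.70 (*Ifit1*).

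The replicates of a time-point did not deviate evenly over the 9 genes. At E15.5, replicate 2 had the highest value in 6 genes (*Isg15*, *Ifit1*, *Ifit3*, *Irf7*, *Oasl2* and *Usp18*) and replicate 3 the lowest in 6. At P8, replicate 3 was the highest in 5 genes (*Ifit1*, *Ifit2*, *Ifit3*, *Oasl2* and *Bst2*) and the lowest in *Irf7* and *Ifi27l2a*. Genes of thymocytes set E15.5 replicate 2 and P8 replicates 1 and 2 apart from the other libraries of their time-points. The summed CPM of 7 thymocyte markers (*Dntt*, *Rag1*, *Rag2*, *Ptcra*, *Cd8b1*, *Cd4* and *Themis*) was 17.8 in E15.5 replicate 2, 151 in P8 replicate 1 and 296 in P8 replicate 2, and 0.459 to 13.1 (P8 replicate 3) in the other 9 libraries. In E15.5 replicate 2, *Rag1* alone made up 609 of the 906 reads. Without these 3 libraries the number of members called was the same in each comparison, 0, 8, 0 and 8, while the median log2 fold change from E15.5 to E18.5 was 0.22. The part of thymus tissue in the within-group differences was not tested.

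The other genes that interferon is known to induce were examined as a list of 52, of which 51 were tested. From E18.5 to P5, 39 of the 51 were called higher (17.5% of all genes) and 0 lower (9.34%), with a median log2 fold change of 1.996. Under other processing settings, which differ in rule and in the genes tested, the list had 28 to 49 calls in this interval. The value of 49 was by FDR alone, under which 5660 of all 15994 genes were higher. In the P5 libraries 50 of the 52 were higher without overlap, beside 34.4% of all genes. *Rsad2*, which encodes the antiviral enzyme viperin, changed most. Its E18.5 libraries held 0.390, 1.09 and 0.696 CPM and its P5 libraries 37.3, 18.3 and 21.5 CPM (log2 fold change 5.24, SE 0.372, edgeR FDR = 1.0e-07). The next largest rises were in *Ifit3b* (5.09), *Sp100* (4.49), a nuclear body protein, *Phf11d* (4.16), the immunity-related GTPase *Ifi47* (4.07) and *Lgals3bp* (3.96). The oligoadenylate synthetase genes *Oas1a*, *Oas1b*, *Oas1c*, *Oas1g*, *Oas2* and *Oas3* were all called higher, with log2 fold changes from 1.47 to 3.59. The E18.5 libraries held few reads of *Oas1g* (6, 3 and 3), *Oas2* (2, 4 and 10) and *Oas3* (7, 7 and 4). By limma on log2(CPM + 1) *Oas2* rose by 0.80, under the cutoff, and from E15.5 to P8 it was not called (log2 fold change 0.80, edgeR FDR = 0.085). The 12 that were not called comprised *Eif2ak2* (0.15, edgeR FDR = 0.15), the double-stranded RNA kinase, and *Ifit1bl1* (1.91, edgeR FDR = 0.097), while the other 10 passed the FDR threshold with log2 fold changes of 0.25 (*Adar*) to 0.94 (*Znfx1*). These included *Trim25*, *Samhd1* and *Iigp1*, which were at 45.8 CPM or more before birth.

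In the interval from E15.5 to E18.5, 1 of the 51 genes tested was called higher and 1 lower, beside 1.59% and 1.46% of all genes. From P5 to P8, 1 was called higher, beside 2.88% of all genes. The summed CPM of the list did not overlap between adjacent time-points, at 528 to 535 (E15.5), 596 to 617 (E18.5), 1255 to 1298 (P5) and 1431 to 1536 (P8). At P8, 21 of the 52 were higher than at P5 without overlap, beside 20.8% of all genes. From E15.5 to E18.5, *Oas2* was called lower (0.952, 0.629 and 0.452 CPM at the earlier and 0.0411, 0.0766 and 0.183 CPM at the later time-point, log2 fold change -2.71, edgeR FDR = 0.0035) and *Samd9l* higher (1.33, edgeR FDR = 0.00011). By limma on log2(CPM + 1) the change of *Oas2* was -0.60, under the fold change cutoff. From P5 to P8, *Ifit1bl1* was the sole gene of the list to be called (log2 fold change 4.59, SE 0.875, edgeR FDR = 0.0064). It was at 1.53, 1.40 and 1.38 CPM at P5 and at 56.7, 45.6 and 1.94 CPM at P8, so that its rise rested on P8 replicates 1 and 2. These libraries also had the highest summed thymocyte markers (151 and 296 CPM), and a link of the gene to them was not tested. Without the 3 libraries highest in these genes its log2 fold change was 0.40 (edgeR FDR = 0.67), with P8 replicate 3 as the lone P8 library, which is assumed to vary like the other groups. In that fit, 40 of the 51 genes of the list were called higher from E18.5 to P5 and 0 in the later interval.

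**Figure D3:**
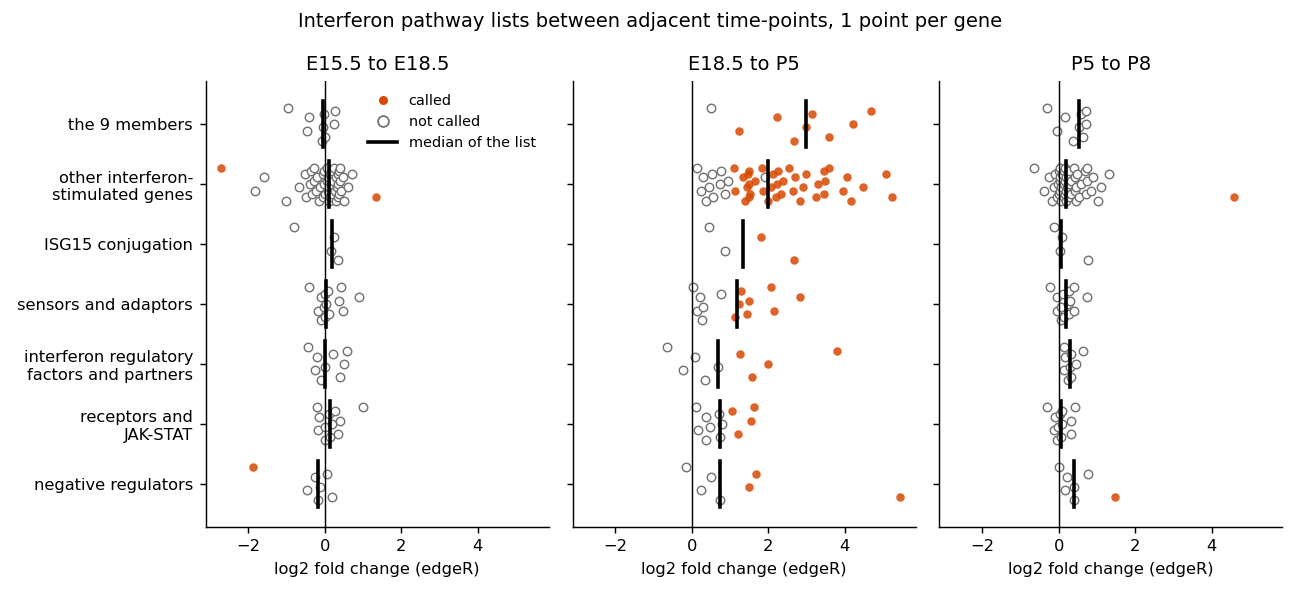
Log2 fold change (x axes) of each tested gene of the members and of 6 interferon pathway lists (y axis) in the 3 intervals between adjacent time-points; orange points were called, open points were not, and the black bar is the median of a list. The medians lie at 2.99 for the members and 1.996 for the other interferon-stimulated genes from E18.5 to P5, and the lone point at 4.59 from P5 to P8 is *Ifit1bl1*.

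Uniquely mapped reads of the interferon genes examined were scarce. Of 12 ligand genes, 7 had 0 reads in all 12 libraries (*Ifnb1*, *Ifne*, *Ifna1*, *Ifna2*, *Ifna4*, *Ifna5* and *Ifnl2*), which allows a level of up to 0.0482 to 0.0619 CPM per library (3 reads, for counting error only). That limit holds for uniquely mapped reads. Reads shared among near copies, such as the *Ifna* genes, can be lost, so it does not bound the levels of those genes. *Ifng*, the type II interferon, had 0 reads in every embryonic library and 0 to 5 in the postnatal ones, *Ifnk* had 2 reads in each of 2 libraries, *Ifna13* 1 read in each of 2, and *Ifnl3* 3 reads in 1. *Ifnz* was the sole ligand read in every library, with 1 to 27 reads. The summed ligand level was 0.0205 to 0.555 CPM before birth and 0.181 to 0.472 CPM after it, with overlapping values. These genes did not pass the filter, so no difference was tested.

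Among 12 genes of the receptors and the JAK-STAT cascade, 4 were called higher from E18.5 to P5 (17.5% of all genes) and 0 lower, with a median log2 fold change of 0.73. *Ifnar1* was at 119 CPM at E18.5 and 121 at P5 (log2 fold change 0.12, SE 0.0547, edgeR FDR = 0.069), and *Ifnar2* at 27.3 and 35.9 (0.48, SE 0.0923, edgeR FDR = 0.00049). The called genes included *Irf9* (log2 fold change 1.54, edgeR FDR = 2.0e-06), which is itself interferon-induced, and the receptor chains *Ifngr1* (1.21) and *Il10rb* (1.06). *Stat2* was at 0.72 (edgeR FDR = 2.8e-05), under the fold change cutoff. *Irf9* had 11.6, 10.1 and 12.9 CPM in the E18.5 libraries, 32.5, 32.6 and 29.7 in those of P5 and 39.2, 30.7 and 49.2 in those of P8, so that the P5 and P8 values overlapped. In the intervals before and after, 0 of the 12 were called. Of all genes, 1.59% were called higher and 1.46% lower in the former, and 2.88% higher in the latter.

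The enzymes that attach ISG15 to its targets showed an uneven change. Of 4 genes, *Uba7*, the activating enzyme, rose by 2.67 on the log2 scale from E18.5 to P5 (edgeR FDR = 2.5e-07) and *Ube2l6*, the conjugating enzyme, by 1.82 (edgeR FDR = 2.8e-06). The ligase *Herc6* was at 0.87 (edgeR FDR = 0.0027) and *Trim25* at 0.45 (edgeR FDR = 0.00014), below the cutoff. *Uba7* had 2.36, 1.36 and 2.66 CPM in the E18.5 and 11.6, 14.6 and 12.1 CPM in the P5 libraries, the same interval in which *Isg15* and *Usp18* were called.

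Of 14 sensors of nucleic acids and their adaptors, 8 were called higher from E18.5 to P5 (17.5% of all genes) and 0 lower. They were the RNA helicases *Ifih1* (log2 fold change 2.84), *Dhx58* (1.49) and *Ddx58* (1.29), the Toll-like receptors *Tlr7* (2.16), *Tlr9* (2.07) and *Tlr3* (1.12), the DNA sensor *Aim2* (1.45) and the kinase *Ikbke* (1.23). The cytosolic DNA pathway genes *Mb21d1* (0.14, edgeR FDR = 0.52) and *Tmem173* (0.05, edgeR FDR = 0.77) were not called. Of 9 interferon regulatory factors and their binding proteins, 4 were called higher in this interval (17.5% of all genes) and 0 lower (9.34%). They were *Irf4* (3.81), *Irf5* (1.998), *Irf1* (1.58) and *Irf8* (1.27). *Irf3*, which is present before induction, was at 26.2 CPM at E18.5 and 31.4 at P5 (0.35, edgeR FDR = 0.00033).

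Among 8 negative regulators, 7 were tested and 3 were called higher from E18.5 to P5, beside 17.5% of all genes. They were *Nlrc5* (log2 fold change 5.45, edgeR FDR = 1.6e-07), *Ptpn6* (1.69) and *Dhx58*, which is also counted among the sensors. *Nlrc5*, best known as an activator of MHC class I genes, had 0.164, 0.0574 and 0.0183 CPM in the E18.5 libraries, 3.56, 2.64 and 3.63 in those of P5 and 9.97, 8.33 and 9.24 in those of P8. It was also called lower from E15.5 to E18.5 (-1.87, edgeR FDR = 0.015) and higher at P8 than at P5 (1.47, edgeR FDR = 0.0073). The former was not past the threshold without E18.5 replicate 2 (edgeR FDR = 0.060) or with only the 2 time-points in the fit (edgeR FDR = 0.13), nor was either without the 3 libraries highest in thymocyte genes, a fit with fewer libraries in which the log2 fold changes were -1.82 and 1.46 (edgeR FDR = 0.053 and 0.082).

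Genes that mark cell types moved across birth as well, beside the 9 genes. The summed CPM of 4 leukocyte markers was 43.1 to 80.1 in the embryonic and 274 to 545 in the postnatal libraries, that of 11 monocyte and macrophage markers 121 to 143 and 1957 to 2769, that of 6 neutrophil markers 0.747 to 6.49 and 42.7 to 75.1, and that of 4 B cell markers 1.74 to 2.32 and 33.0 to 57.6. Endothelial markers (4 genes) went from between 596 and 928 to between 1617 and 1950, lung epithelium markers (6 genes) from between 963 and 2516 to between 13048 and 17094, and red blood cell genes (5 genes) from between 3755 and 4969 to between 10446 and 19560. In each of these 7 lists the postnatal sums lay above all embryonic ones. The macrophage sum was carried by *Lyz2*, at a mean of 49.4 CPM at E18.5 and 2119 at P5. The macrophage list had a median log2 fold change of 1.68 with 8 of 11 genes called higher, beside 17.5% of all genes. The epithelium list was mixed gene by gene, with 4 of 6 called higher and 1 lower from E18.5 to P5, beside 17.5% and 9.34% of all genes.

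The lists of plasmacytoid dendritic cells, the main producers of type I interferon, and of T cells and thymocytes overlapped between all embryonic and all postnatal libraries, but not between E18.5 and P5. Their sums were 0.804 to 14.2 before and 8.27 to 52.4 after birth for 6 plasmacytoid dendritic cell genes, 3.80 to 27.5 and 16.2 to 128 for 5 T cell genes, and 0.459 to 17.8 and 6.32 to 296 for the thymocyte genes. In E18.5 and P5 libraries alone they were 0.804 to 1.25 and 10.4 to 15.7, 3.80 to 4.54 and 16.2 to 23.5, and 0.459 to 0.739 and 6.32 to 8.91. In that interval 3 of 4 tested plasmacytoid dendritic cell genes (median log2 fold change 3.64), 4 of 5 T cell genes (6.35) and 3 of 6 thymocyte genes (3.12) were called higher, beside 17.5% of all genes. *Ly6g*, a defining gene of neutrophils, had 0 reads in all 6 embryonic libraries and was read in every postnatal library. The sum of the plasmacytoid dendritic cell list was again highest in P8 replicates 1 and 2 (39.0 and 52.4), whose *Ccr9* and *Ly6d* are also made by lymphocytes. Before birth this list was highest in E15.5 replicate 2 (14.2), where *Cox6a2* alone made up 664 of its 722 reads. Every other gene of the list had at most 35 reads in any embryonic library. The part of these cell types in the change of the 9 genes was not tested.

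**Figure D4:**
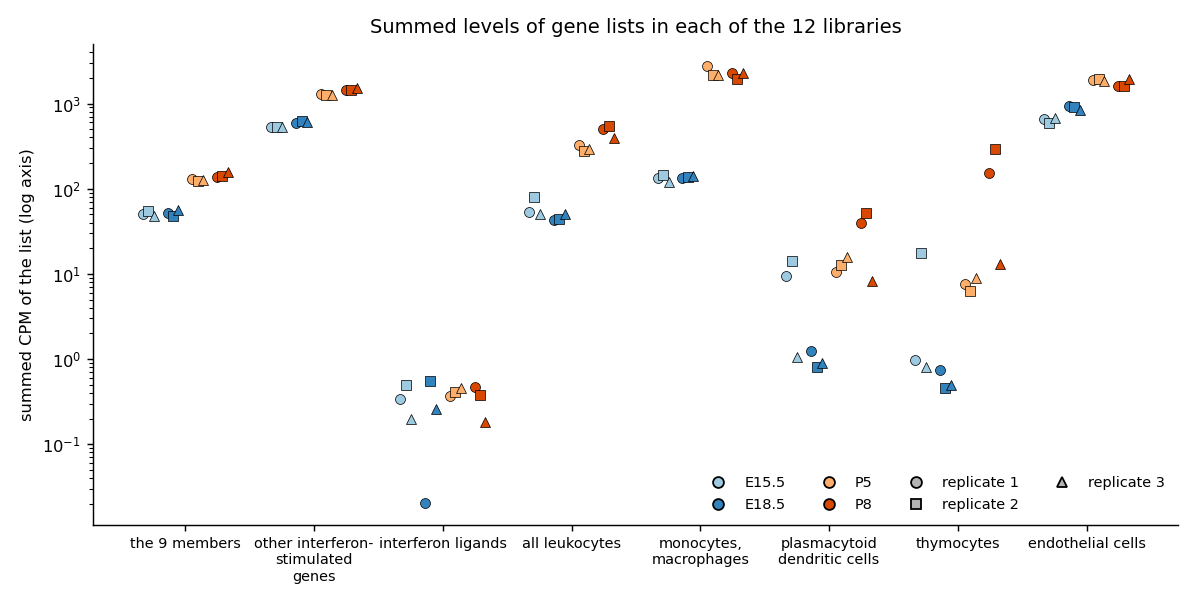
Summed CPM (y axis, log scale) of the 9 genes, the other interferon-stimulated genes, the interferon ligands and 5 cell marker lists (x axis) in each of the 12 libraries; colours are time-points and symbols replicates. The 9 genes and the leukocyte, macrophage and endothelial lists have all postnatal points above the embryonic ones, and the ligands stay between 0.0205 and 0.555. In thymocyte genes E15.5 replicate 2 and P8 replicates 1 and 2 stand apart within their time-points.

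The genes whose pattern over the 12 libraries was most like that of the 9 were ranked by Pearson's r with the mean z-score of log2(CPM + 1) of the 9 genes. The 10 highest, with r between 0.996 and 0.998, included *Serpinb8*, *Spock2*, *Rab11fip1*, *Itgb3*, *Timp2*, *Emb*, *Irf1*, *H2-DMa* and *Cyb5r3*. Of these, *Irf1*, an interferon regulatory factor, had means of 16.5, 16.4, 46.1 and 52.8 CPM over the time-points in order, and *Serpinb8*, a serine protease inhibitor, means of 3.60, 4.002, 16.7 and 19.7 CPM. Of the 9 themselves, 8 had an r between 0.952 and 0.992 with their mean and *Ifit2* 0.779. The points share the step at birth and the litters, so these values describe the time course and give no likeness within a time-point.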

How the data were processed

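Per the labels and the study's methods, RNA from whole lungs was sequenced as paired-end reads, and per the submitters' processing notes the authors aligned them to mm10 (TopHat2 2.1.1, Bowtie2 2.3.4) and counted them on Gencode genes with HTSeq 0.10.0. The authors deposited raw counts per gene without normalization, and CPM per mapped reads for a larger gene set, from which whole reads came out for 100% of values (tolerance 0.01). Splicing values (PSI) were deposited too and were not used here.

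Gene symbols were matched to identifiers by table (16136 of 16152 genes). Counts were tested with edgeR 4.0.16 (R 4.3.3, TMM, quasi-likelihood) in 1 fit of the 12 libraries over 15994 genes that reached 1 CPM or more in 3 or more libraries. FDR is Benjamini-Hochberg over all genes tested. The fit was also run on simulated counts with the same spread for every gene and independent libraries, which cannot show how it does with litters or the real spread. Places and exon lengths are from GENCODE M21 (mm10), and promoter sequences from RefSeq. Between 2 libraries of a time-point, counts differed by more than sampling noise (mean chi-square per gene 13.0 to 75.7).

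The members and lists were chosen with earlier results of these data known. Named were all 9 members, 9 fixed pathway genes, up to 6 called genes per list from E18.5 to P5 and up to 4 in other comparisons, with others named after their values were seen, and the 10 genes most like the members. A few genes these rules name are not reported here. Alternatives were DESeq2 1.42.0, limma 3.58.1, other normalizations, filters and thresholds, a replicate block and leaving out libraries. The depth sets the precision of low genes, and counting limits cover counting error only.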

Additional observations from a re-analysis of the deposited data

How the results depend on the processing

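Of 864 log2 fold changes of the 9 genes under 24 other settings, 824 kept their direction and side of the threshold, 6 passed it anew, 34 changed sign and 0 lost a call. Each change of sign was in a value that was not called, near 0 or of few reads, and the cause was not tested. Values of the interval from E15.5 to E18.5 that changed sign were -0.012 (*Bst2*) by library size alone, 0.00049 (*Irf7*), -0.0028 (*Bst2*) and 0.0082 (*Usp18*) by limma with a pseudocount of 1, and 0.059 (*Ifit1*), 0.067 (*Irf7*), -0.0030 (*Bst2*) and 0.032 (*Usp18*) with one of 0.1. Without the 3 libraries highest in thymocyte genes, chosen after the data were seen, they were 0.090 (*Isg15*), 0.73 (*Ifit1*), 0.43 (*Irf7*) and 0.34 (*Usp18*), and from P5 to P8 0.15 (*Bst2*) and -0.13 (*Ifi27l2a*). Leaving out 1 library gave, from E15.5 to E18.5, -0.67 to 0.083 (*Isg15*), -0.48 to 0.73 (*Ifit1*), -0.034 to 0.74 (*Ifit3*), -0.43 to 0.43 (*Irf7*), -0.054 to 0.059 (*Bst2*) and -0.18 to 0.33 (*Usp18*), and from P5 to P8 -0.18 to 0.020 (*Bst2*). E15.5 replicate 2 alone set the upper bound of *Isg15*, *Ifit1*, *Ifit3*, *Irf7* and *Usp18*. *Oasl2* ran from -1.26 to -0.43. Members called then ranged from 0 to 1 (*Oasl2*) in the first interval. The E18.5 to P5 values fell by over 1.5 times by limma with a pseudocount of 1 in *Ifit1* (2.09), *Ifit3* (2.17), *Isg15* (2.39) and *Ifi27l2a* (1.84), with *Isg15* then highest, and stayed called.

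With FDR alone, *Ifit2* passed in all 4 comparisons, so that 1 member was called in the embryonic and 1 in the postnatal interval. Of the 51 other interferon-stimulated genes tested, 8 then passed in each of these intervals, beside 21.5% and 18% of all genes. From P5 to P8 the list had 2 calls by DESeq2 or with only the 2 time-points fitted, 0 among genes of 5 CPM or more, and 1 to 2 with 1 library left out. From E15.5 to E18.5 it had 1 call among genes of 5 CPM or more, 1 by limma with a pseudocount of 1, and 2 to 4 with 1 library left out. From E18.5 to P5 its calls ranged from 28 to 49 over all the settings, and from 39 to 40 with 1 library left out. From E15.5 to P8 they ranged from 32 to 49, and from 43 to 44 with 1 library left out. Both values of 49 were by FDR alone, under which 5660 and 6015 of all 15994 genes were higher. The counts of this list were added as a result after the data were seen.

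In the fit with a replicate block, members called stayed at 0, 8, 0 and 8, and *Usp18* from E15.5 to E18.5 was at 0.0088. Over all genes tested, deviations of same-numbered libraries from the time-point means correlated at -0.29 to 0.27 in 18 pairs, beside -0.28 to 0.24 in 36 pairs of other numbers. Pairing was thus not seen, and whether same-numbered libraries shared a batch was not tested. With 3 libraries of 1 litter at each time-point, and as few as 2 reads in an embryonic library for *Ifit1*, the smaller differences before birth are limited by depth and replication.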
